A study of Mus musculus with 6 samples.

Results

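The proteasome is the barrel-shaped protease that degrades ubiquitin-tagged proteins, and its genes were read here in keratinocytes of mice that lost Lama3 in the skin. The members were all protein-coding genes whose symbol begins with Psma, Psmb, Psmc, Psmd, Psme, Psmf or Psmg followed by a digit. They were 50 of the 45513 gene identifiers counted, and 48 of them had enough reads to be tested. One member, Psmc3ip, matches by its symbol only: it encodes a meiotic recombination factor and no proteasome subunit.

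As background, the 20S core is a stack of rings of alpha subunits, which gate the entrance, and of beta subunits, which include the 3 that cut peptides. In cells exposed to interferon gamma, and in most leukocytes at rest, the cutting subunits encoded by Psmb5, Psmb6 and Psmb7 are replaced in newly built particles by those of Psmb8, Psmb9 and Psmb10, giving the immunoproteasome, which is known for making peptides for MHC class I. The 19S particle (Psmc ATPases and Psmd subunits) caps the core, binds ubiquitin chains and feeds in unfolded protein, the Psme genes encode other caps, Psmf1 encodes the regulator PI31, and the Psmg genes encode chaperones of core assembly.

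The data were RNA-seq gene counts from keratinocytes isolated from the skin of 3 knockout and 3 control mice on a C57BL/6 background, read as paired 100-base reads. The knockouts carried Lama3 alleles with loxP sites around exons 50 to 53 on both chromosomes, together with K14-CreERT, a tamoxifen-dependent Cre expressed in basal keratinocytes, which was activated with chow holding 400 mg of tamoxifen citrate per kg. The design text describes the controls as Lama3wt/flox with the same K14-CreERT, whereas their genotype label reads wild type; it does not say separately for each group which mice ate the chow, and age, sex and time on tamoxifen are not given in the sources used here. The deletion acts only where keratin 14 drives the Cre, so other cells in the preparation keep the gene.

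Total counts lay between 20126395 and 28473479 per library. Lama3 held 114 to 142 CPM (read counts scaled to library size and TMM factor) in the controls and 79.2 to 98.8 CPM in the knockouts. Its log2 fold change was -0.53 (SE 0.14, edgeR adjusted p = 0.0215), read over the whole gene and not only over the deleted exons. Keratinocyte markers fixed as a list were all present, with a summed level of 31800 to 39000 CPM in the controls and 46600 to 65600 CPM in the knockouts. Krt1, Krt10, Dsp and Dsg3 rose, Krt15 fell, and the other 5, Krt5, Krt14 and Trp63 among them, were not called. Markers of leukocytes and T cells were present in every library and summed to 286 to 572 CPM in the controls and 131 to 185 CPM in the knockouts, and all 14 of them were called lower (median log2 fold change -1.63). Xist counts put 1 female among the controls and 2 among the knockouts.

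Across the family, the immunoproteasome subunits and their partner cap fell under every setting run. The constitutive core had a smaller median log2 fold change (-0.54 against -1.07 for the immunoproteasome subunits), but single genes overlapped, with Psma7 and Psmb8 both at -0.84. Only 2 of the 12 core genes that fell kept their call with offsets for transcript length and GC content. Most of the 19S particle did not pass the test. A gene is said to have fallen or risen at an adjusted p under 0.05 in edgeR's quasi-likelihood test, adjusted over all 15513 genes tested. Of the 48 tested members 25 fell and 5 rose, and their log2 fold changes had a median of -0.45, against -0.02 over all genes. Among all genes tested 18.8% fell and 17.4% rose (36.2% in either direction), so the share of members that fell (52.1%) was above the background and the share that rose (10.4%) was below it. In 26 members all 3 knockouts lay below all 3 controls and in 5 they lay above (26.5% and 25.2% of all genes). In a bulk sample, fewer cells of a type and less RNA per cell cannot be told apart.

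**Figure D1:**
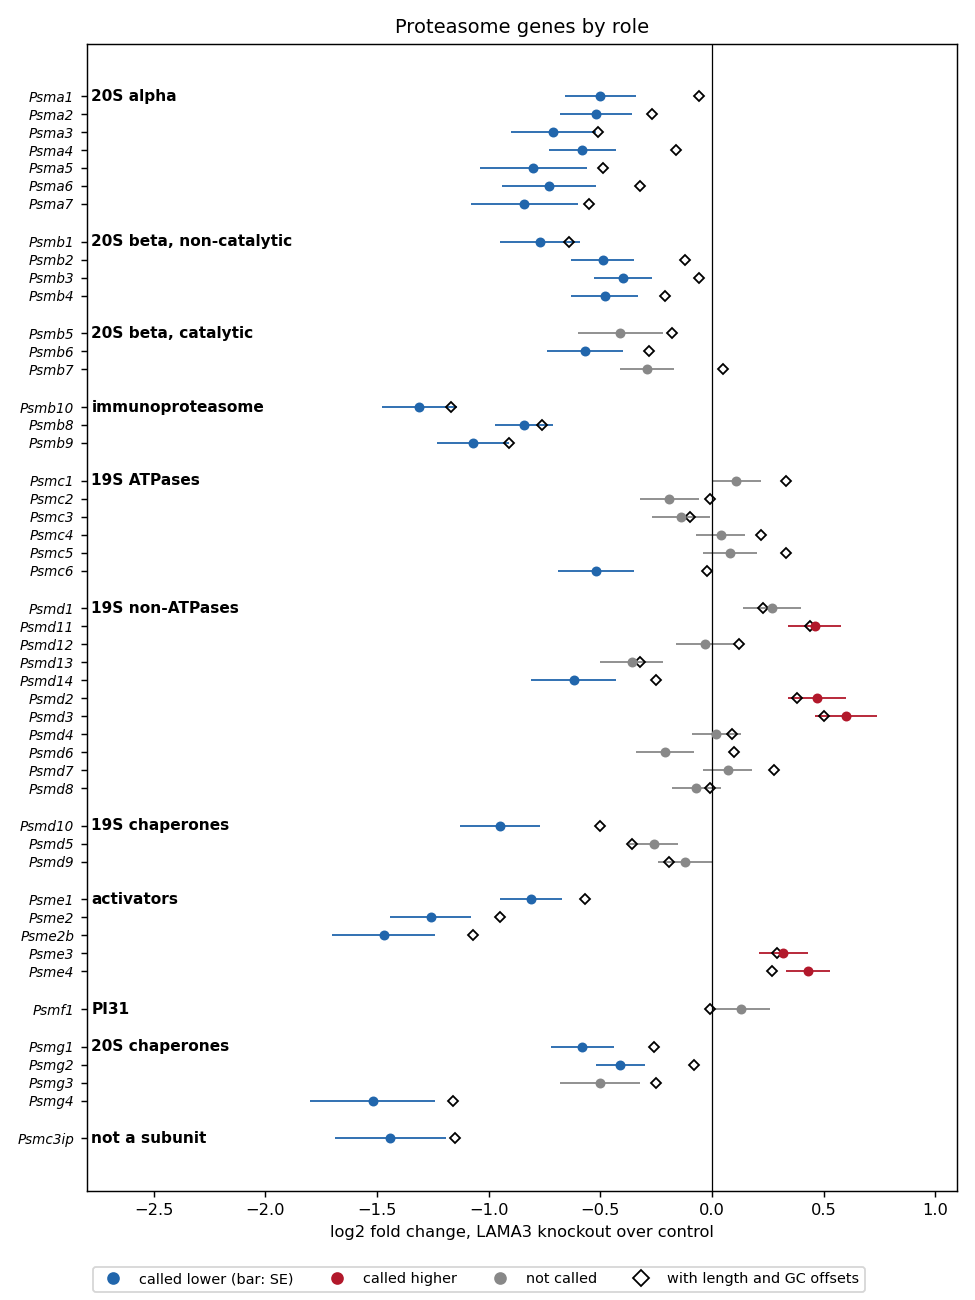
Log2 fold change of knockout over control (x axis) for each of the 48 tested members, ordered by role. Filled points with SE bars are edgeR estimates, coloured by call, and open diamonds are estimates with offsets for transcript length and GC content. The immunoproteasome points lie between -1.31 and -0.84, while the 19S ATPases lie between -0.52 and 0.11.

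Transcript length has to be read beside these values. Over the 11293 genes at 5 CPM or more, the fold change followed the length of the longest coding transcript (Spearman's rho 0.38 across genes, which are not independent): the median was -0.60 for genes under 1000 bases and 0.32 for those of 6000 bases or more. Most core subunits have short transcripts and most 19S subunits longer ones, with a median of 1162.5 and 1819 bases. The 48 members showed the same relation (rho 0.59 across genes). Main results are therefore also given from a fit with offsets for both transcript length and GC, a choice made once the data had been looked at. After the offsets Pearson's r with log2 length was 0.03 over all these genes, down from 0.30, but still 0.43 among the members, down from 0.61. With these offsets 12 members fell and 5 rose (16.3% and 12.7% of all genes, 29.0% in either direction), and 11 of the 25 that fell and 4 of the 5 that rose kept their call.

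**Figure D2:**
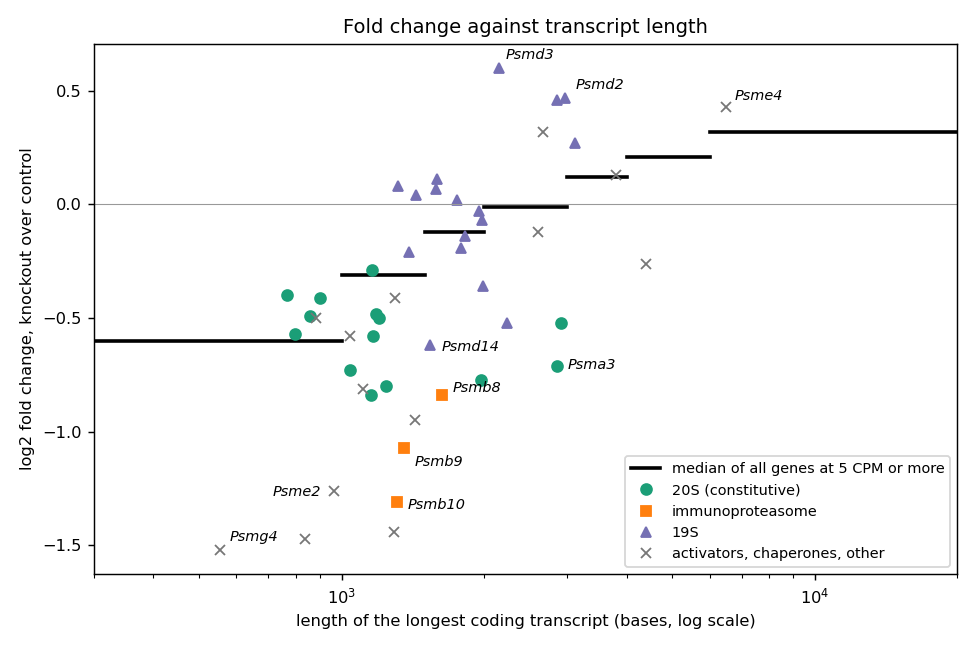
Log2 fold change (y axis) of each tested member against the length of its longest coding transcript in bases (x axis, log scale). Black steps give the median of all genes at 5 CPM or more in each length range, from -0.60 under 1000 bases to 0.32 at 6000 bases or more; Psmb8, Psmb9 and Psmb10 lie below the steps at their lengths.

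The comparison of constitutive with immunoproteasome subunits asked whether the catalytic subunits moved together. All 3 immunoproteasome subunits fell, and all 3 fell with the length and GC offsets as well. Of the 3 constitutive counterparts only Psmb6 fell (2 had an unadjusted p under 0.05, and DESeq2 called 1), and with the offsets their edgeR adjusted p lay between 0.0994 and 0.684.

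The constitutive and inducible catalytic genes are known to be served by different promoter elements, so promoter sequences of these genes are shown first. They are taken from RefSeq promoter windows on GRCm38.p6, written 5′ to 3′ and cut back to bases outside annotated exons. Capitals mark the antioxidant response element core TGACNNNGC, which the transcription factor NRF1 is known to bind at proteasome genes, or, for Psmb8, the gamma-activated site core TTCNNNGAA.
Psmb5 (chr14:54618023-54618245, minus strand): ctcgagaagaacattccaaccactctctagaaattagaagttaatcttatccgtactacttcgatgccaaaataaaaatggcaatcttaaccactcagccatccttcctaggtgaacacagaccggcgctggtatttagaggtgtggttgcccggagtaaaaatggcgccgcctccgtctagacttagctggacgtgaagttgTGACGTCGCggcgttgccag
Psmb6 (chr11:70525107-70525356, plus strand): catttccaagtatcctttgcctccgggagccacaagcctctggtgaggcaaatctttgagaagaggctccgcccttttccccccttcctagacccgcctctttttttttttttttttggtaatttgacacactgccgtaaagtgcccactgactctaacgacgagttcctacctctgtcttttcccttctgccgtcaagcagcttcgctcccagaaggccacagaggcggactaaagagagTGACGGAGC
Psmb10 (chr8:105938445-105938642, minus strand): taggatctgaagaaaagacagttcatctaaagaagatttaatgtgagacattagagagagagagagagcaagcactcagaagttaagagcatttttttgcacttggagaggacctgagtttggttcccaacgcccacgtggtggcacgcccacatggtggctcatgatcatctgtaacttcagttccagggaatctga
Psmb8 (chr17:34198088-34198116, plus strand): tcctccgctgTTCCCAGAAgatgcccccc
The Psmb8 stretch lies before the RefSeq start but inside the gene as GENCODE places it, and is kept short because its window lies in annotated exons. Windows from 250 bases before to 50 after the start were found for 42 of the 50 members, and both strands were searched; Psmb7 had no window and was not searched. The antioxidant core was found in Psmb5 and Psmb6 among the catalytic genes, in 6 members in all and in 12.4% of all RefSeq windows. The gamma-activated core was found in Psmb8 among the catalytic genes, in 3 members in all, Psmd2 and Psmg1 being the others, and in 8.30% of all windows. The core of the interferon-stimulated response element was found in none of the 3 immunoproteasome genes, in 5 members in all, Psme1 among them, and in 3.44% of all windows. A match to so few letters is a description of the window.

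Psmb10 encodes the trypsin-like subunit of the immunoproteasome (chromosome 8 of GRCm38, 105935735 to 105938444, minus strand). It was measured at 33.0, 24.9 and 29.0 CPM in controls 1, 2 and 3 and at 12.5, 9.35 and 13.2 CPM in knockouts 1, 2 and 3. All knockouts lay below all controls, with a gap wider than the spread within either group. The log2 fold change was -1.31 (SE 0.17, edgeR adjusted p = 0.00245), the smallest p of the family, and -1.17 with the offsets.

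Psmb9, which encodes the subunit that replaces the caspase-like one, lies on chromosome 17 (34181987 to 34187764, minus strand), close to Psmb8 in the MHC region. It held 145, 99.3 and 133 CPM in the controls and 59.1, 53.8 and 66.1 CPM in the knockouts. The groups did not overlap, and control 2 was the lowest control. The log2 fold change was -1.07 (SE 0.16, edgeR adjusted p = 0.00352), and -0.91 with the offsets. Psmb9 shares 212 exon bases with Tap1 on the other strand, and whether counting used strand is not given in the sources used here. Tap1, a chain of the peptide transporter of MHC class I loading, had a log2 fold change of 0.07 (SE 0.15, not called).

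Psmb8, the chymotrypsin-like subunit of the immunoproteasome (chromosome 17, 34197721 to 34201454, plus strand), held 176, 132 and 147 CPM in the controls. The knockouts held 82.1, 82.6 and 89.8 CPM, a narrow range below every control. The log2 fold change was -0.84 (SE 0.13, edgeR adjusted p = 0.0042), and -0.76 with the offsets. These 3 genes kept their call in all 15 alternatives run, leaving out each library included.

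Psmb5, the constitutive chymotrypsin-like subunit that bortezomib binds, held 104, 87.0 and 109 CPM in the controls and 72.3, 57.2 and 95.0 CPM in the knockouts. Knockout 3 lay within the controls, and the log2 fold change of -0.41 (SE 0.19) was not called (edgeR adjusted p = 0.117). Without knockout 3 it was called lower (edgeR adjusted p = 0.0236). Psmb6, the caspase-like subunit, held 173, 135 and 161 CPM in the controls and 104, 85.3 and 127 CPM in the knockouts. The groups stood apart, but knockout 3 and control 2 were close, and the fall of 0.57 on the log2 scale (SE 0.17, edgeR adjusted p = 0.0326) was lost with the offsets (-0.28, edgeR adjusted p = 0.0994). With sex as a covariate the call was lost too, and it held when control 2 or knockout 3 was left out but not when any other single library was (edgeR adjusted p up to 0.0994 over the 15 alternatives). Psmb7, the trypsin-like subunit, held 169, 152 and 151 CPM in the controls and 133, 113 and 142 CPM in the knockouts. These did not overlap. Psmb7 was not called (log2 fold change -0.29, SE 0.12, edgeR adjusted p = 0.104), and stood at 0.05 with the offsets. Psmb11, the subunit of the thymoproteasome of thymic cortical epithelium, had no count in any library, which allows at most 3 counts, or 0.105 to 0.149 CPM per library (counting error only).

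**Figure D3:**
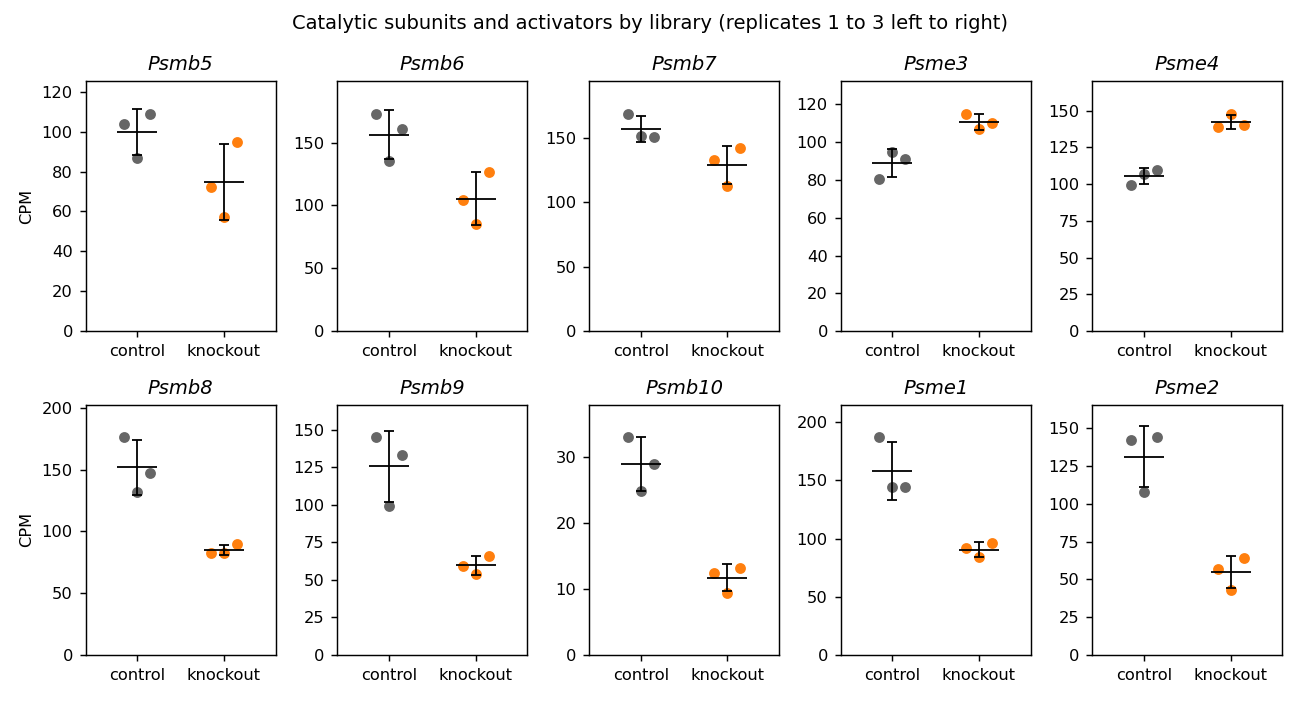
CPM (y axis, from 0) of the catalytic subunits and of 4 activator genes in each library, with mean and SD over 3 libraries per group. Psmb8, Psmb9, Psmb10, Psme1 and Psme2 show gaps between the groups, Psmb5 overlaps, and Psme3 and Psme4 are higher in all knockouts.

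The ratio of each inducible subunit to the one it replaces does not depend on library scaling. Psmb10 over Psmb7, as counts per base of transcript, was 0.173, 0.145 and 0.169 in the controls and 0.0837, 0.0729 and 0.0822 in the knockouts. The knockout ratios were about 0.49 times those of the controls, with a wide gap between the groups. Psmb9 over Psmb6 was 0.493, 0.433 and 0.486 in the controls and 0.334, 0.373 and 0.307 in the knockouts, 0.717 times the control level and again without overlap. Psmb8 over Psmb5 was 0.941, 0.835 and 0.746 in the controls and 0.627, 0.797 and 0.522 in the knockouts, so that knockout 2 lay within the controls. The 2-sided exact permutation p was 0.1 for each of the first 2 ratios, the smallest that 3 against 3 can give, and 0.2 for Psmb8 over Psmb5; adjusted over the 3 ratios by Benjamini-Hochberg these were 0.15, 0.15 and 0.2. Leaving out 1 library moved the Psmb8 over Psmb5 difference of -0.39 on the log2 scale to between -0.55 and -0.24 (-0.24 without knockout 3 and -0.55 without knockout 2). Per base of transcript, all 3 inducible genes were below their counterparts in every library of both groups. Psmb7 shares 405 exon bases with Nek6 and Psmb8 shares 498 with Gm20496, both on the other strand. Psmb5 shares 23.6% of its 100-base stretches with Gm3375. The counts behind the ratios are therefore uncertain, as are those of Psmb9 beside Tap1.

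**Figure D4:**
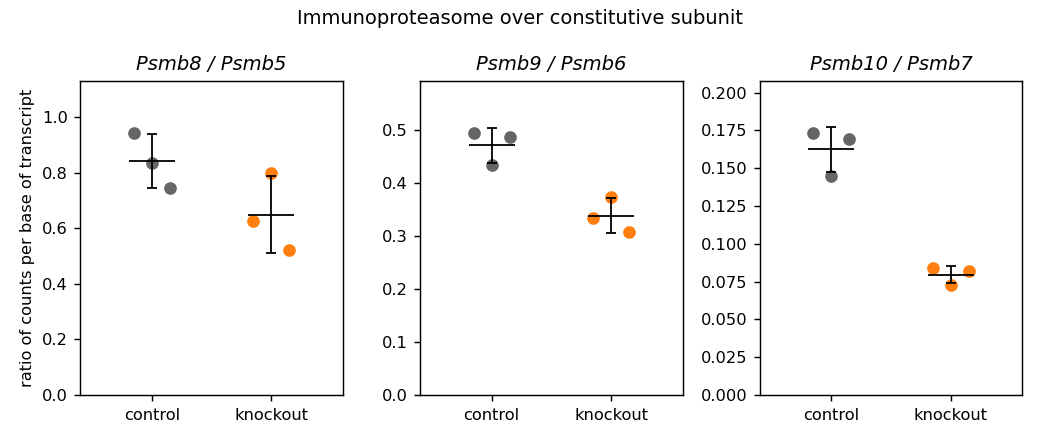
Ratio of each immunoproteasome gene to the constitutive gene it replaces (y axis, counts per base of transcript, from 0) in each library, with mean and SD over 3 libraries per group. The groups are separate for Psmb9 / Psmb6 and Psmb10 / Psmb7 and overlap for Psmb8 / Psmb5.

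Most leukocytes carry immunoproteasomes at rest. The listed markers of all leukocytes and T cells also fell, while the other leukocyte lists gave mixed or opposite calls. The summed leukocyte and T cell markers were 131 to 185 CPM in the knockouts against 286 to 572 CPM in the controls, and Cd3e, a T cell receptor chain, fell by 1.63 on the log2 scale (SE 0.19). Of 8 Langerhans and dendritic cell markers 1 rose (Mfge8, 0.46) and 1 fell (Cd207, -1.68). The median of the 8 was -0.59 on the log2 scale, with 6 below 0 and 2 above. Their sums overlapped (874 to 1890 CPM in the controls, 945 to 1170 CPM in the knockouts). The neutrophil list had 1 tested gene of 8, Cxcr2, which rose by 4.55 (SE 0.71). Of 9 tested markers of monocytes and macrophages 4 rose, C1qa by 2.06 (SE 0.36) among them, and none fell (in edgeR none had an unadjusted p under 0.05 in that direction, and DESeq2 called none lower); their sums overlapped, at 29.9 to 65.1 CPM in the controls and 42 to 63.7 CPM in the knockouts. All 6 melanocyte markers and all 7 tested hair shaft and sheath markers fell, with medians of -2.65 and -6.71 on the log2 scale. The part of leukocytes, or of these other cells, in the fall of the immunoproteasome genes was not tested.

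Genes that act with the immunoproteasome did not all move with it. Of 12 genes of MHC class I peptide loading none was called by edgeR, none had an unadjusted p under 0.05, and DESeq2 called 1 lower. Their median was 0.02 on the log2 scale, and -0.18 with the offsets. The smallest p was that of Pdia3, a disulfide isomerase of the loading complex, at -0.35 (SE 0.15, edgeR adjusted p = 0.11). B2m, the invariant chain of MHC class I, was at 2020 to 2540 CPM in the controls and 1950 to 2420 CPM in the knockouts. Of 18 genes of interferon gamma signalling and response 3 fell and none rose (2 had an unadjusted p under 0.05 in that direction, and DESeq2 called 1 higher), with a median of -0.41. Among all genes tested 18.8% fell and 17.4% rose, so the share of this list that fell was near that of all genes. With the offsets 4 of the 18 fell (16.3% of all genes) and their median was -0.57. Cxcl10, a chemokine that attracts T cells, fell by 1.92 (SE 0.16) and Iigp1, an interferon-inducible GTPase, by 1.88 (SE 0.35). Irf1, the factor known to switch on Psmb9, held 64.2 to 76.3 CPM in the controls and 29.4, 56.3 and 59.3 CPM in the knockouts, and was not called (log2 fold change -0.57, SE 0.25); Irf1 was named after its values were seen.

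The caps known as PA28 and PA200 split in direction. Psme1 and Psme2 encode the alpha and beta chains of the interferon-inducible PA28 ring, and lie close together on chromosome 14 (55578123 to 55581529 and 55587441 to 55591113). Psme1 held 187, 144 and 144 CPM in the controls and 91.8, 83.9 and 96.0 CPM in the knockouts. Psme2 held 142, 108 and 144 CPM in the controls and 57.0, 43.0 and 63.9 CPM in the knockouts. For both, every knockout was below every control, and the log2 fold changes were -0.81 (SE 0.14, edgeR adjusted p = 0.00512) and -1.26 (SE 0.18, edgeR adjusted p = 0.00297), or -0.57 and -0.95 with the offsets, where both kept their call. Psme2b fell by 1.47 (SE 0.23) from 116, 82.1 and 110 CPM to 37.0, 26.6 and 47.4 CPM, and was at -1.07 with the offsets. It is a copy of Psme2, with which it shares 52.0% of its 100-base stretches, so the counts of these 2 are uncertain between them.

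Psme3 encodes the gamma form of PA28, which is nuclear and not part of the interferon response. It held 80.6, 94.7 and 91.2 CPM in the controls and 115, 107 and 110 CPM in the knockouts. All knockouts were higher, but the rise of 0.32 (SE 0.11, edgeR adjusted p = 0.0496) lost its call in 13 of the 15 alternatives, the offsets among them (edgeR adjusted p = 0.0522); the adjusted p ranged from 0.0247 to 0.232. Psme4 encodes PA200, a single-chain nuclear cap with roles in histone turnover. It held 99.2, 107 and 110 CPM in the controls and 139, 148 and 140 CPM in the knockouts, tight groups with a clear gap, and rose by 0.43 (SE 0.10, edgeR adjusted p = 0.0153), or by 0.27 with the offsets. With upper-quartile scaling, which moved the median of all genes from -0.02 to -0.17, the Psme4 call was lost. Psmf1, which encodes PI31, held 26.6, 29.6 and 24.2 CPM in the controls and 31.0, 31.6 and 25.6 CPM in the knockouts. These values overlapped and Psmf1 was not called (0.13, SE 0.13; unadjusted p = 0.34, and not called by DESeq2).

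The alpha ring and the non-catalytic beta subunits fell together, but most of these calls were lost with the length and GC offsets or when any of 4 single libraries was left out. All 7 tested alpha genes fell (median -0.71 on the log2 scale), and all 4 non-catalytic beta genes fell, with a median of -0.48. Together with Psmb5, Psmb6 and Psmb7, 12 of the 14 tested constitutive core genes fell and none rose (in edgeR none had an unadjusted p under 0.05 in that direction, and DESeq2 called none higher). The falls ranged from Psma7 (-0.84, SE 0.24) and Psma5 (-0.80, SE 0.24) to Psmb3 (-0.40, SE 0.13), which were at -0.55, -0.49 and -0.06 with the offsets and not called. Psma7, an alpha ring subunit, held 280, 199 and 305 CPM in the controls and 129, 115 and 193 CPM in the knockouts. Knockout 3 was close under control 2. In Psma5 these 2 libraries overlapped, at 90.8 and 90.2 CPM.

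The median of the 14 core genes, as log2 of CPM over the control mean, was 0.13, -0.20 and 0.05 in the controls and -0.54, -0.83 and -0.29 in the knockouts. The distance between control 2 and knockout 3 was thus small beside the distance between knockouts 2 and 3. Without control 1 or control 3 only 1 core gene was called, and without knockout 1 or knockout 2 none was (12 and 11 of the 14 had an unadjusted p under 0.05 in edgeR), while over all genes 10.8% to 12.7% were called lower in those 4 fits. With the length and GC offsets 2 of the 14 fell and the median of the 14 was -0.24. In that fit 16.3% of all genes fell, so the share of core genes that fell was not above that of all genes.

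The 2 that kept their call with the offsets were Psma3 (-0.51) and Psmb1 (-0.64). Psmb1, a non-catalytic beta subunit, held 356, 254 and 322 CPM in the controls and 167, 160 and 220 CPM in the knockouts, and fell by 0.77 (SE 0.18, edgeR adjusted p = 0.0155). Psma3, an alpha subunit, held 119, 79.7 and 112 CPM in the controls and 60.2, 54.0 and 75.6 CPM in the knockouts. Both were assigned long transcripts (1970 and 2846 bases), and Psma3 also has a coding transcript of 859 bases. Gene counts do not show which transcript is expressed, so the offset for Psma3 and its level per length are uncertain. Psma3 also shares 20.6% of its 100-base stretches with Gm13835, so its counts are uncertain too. Per length, the core genes ranged in the controls from 36.4 RPKM (CPM per kilobase of the longest coding transcript) for Psma3 to 229 RPKM for Psma6, whose neighbour in this order was Psma7 at 226 RPKM; these 2 do not differ beyond their spread. Psma8, the testis form of an alpha subunit, held 1 to 10 counts per library and was not tested.

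**Figure D5:**
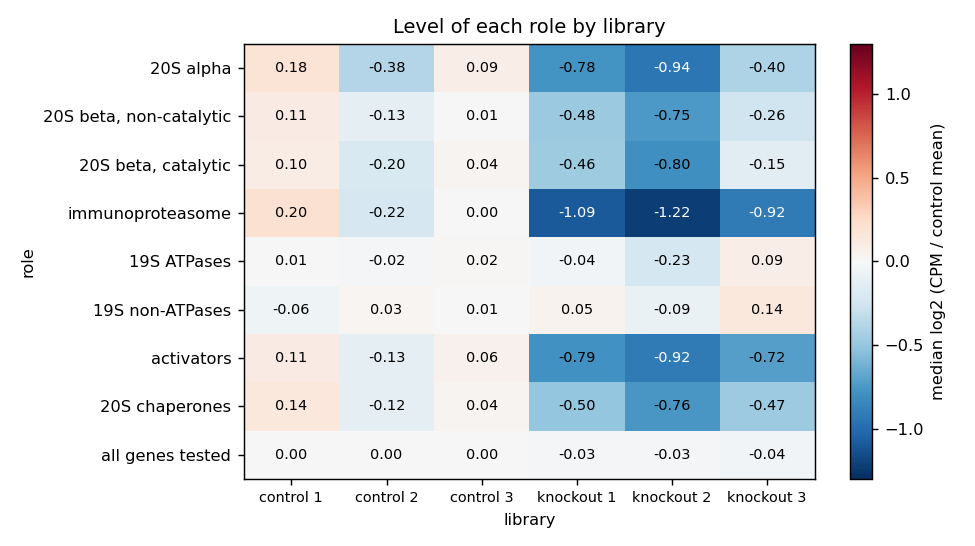
Median over tested members of log2 (CPM / control mean) for each role (rows) in each library (columns). The immunoproteasome row reads -1.09, -1.22 and -0.92 in the knockouts, the 20S alpha row -0.78, -0.94 and -0.40, and the 19S ATPase and non-ATPase rows stay between -0.23 and 0.14.

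Most of the 19S particle stayed near the median of all genes. Of its 17 genes 3 rose, 2 fell and 12 were not called. Among all genes tested 17.4% rose and 18.8% fell, so the share of 19S genes that rose was close to that of all genes. The median of the 17 was 0.02 on the log2 scale. In 13 of the 17 the groups overlapped, a larger share than over all genes, where they overlapped in 7490 of the 15513 tested. Among the 6 ATPases, the motors that unfold substrates, 1 fell, which was Psmc6 (-0.52, SE 0.17, edgeR adjusted p = 0.0485); knockout 3 overlapped control 2 at 188 and 187 CPM, and with the offsets it was at -0.02. The other ATPases ranged from Psmc2 (-0.19, SE 0.13) to Psmc1 (0.11, SE 0.11). Psmc1 was called higher with the offsets (0.33, edgeR adjusted p = 0.0319).

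The 19S genes that rose all encode non-ATPase subunits, and they have the 3 highest folds of the family. Psmd3, a lid subunit, held 86.7, 114 and 93.7 CPM in the controls and 166, 143 and 137 CPM in the knockouts, and rose by 0.60 (SE 0.14, edgeR adjusted p = 0.0155). Psmd2, the base scaffold that docks ubiquitin-binding shuttles, held 161, 202 and 181 CPM in the controls and 277, 239 and 240 CPM in the knockouts, and rose by 0.47 (SE 0.13, edgeR adjusted p = 0.0282). Psmd11, another lid subunit, held 72.2, 85.3 and 80.1 CPM in the controls and 115, 98.2 and 112 CPM in the knockouts, and rose by 0.46 (SE 0.12, edgeR adjusted p = 0.0195). In each of these all knockouts were above all controls, with control 2 the highest control, and all 3 calls were kept with the offsets (0.50, 0.38 and 0.44). No 19S gene was called higher without control 3 or without knockout 1 (3 had an unadjusted p under 0.05 in edgeR in each), 1 was without control 1, and 1 with upper-quartile scaling. Over all genes the share called higher was also smaller, at 10.1% without control 3, 10.5% without knockout 1 and 11.8% without control 1.

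Psmd1, the other base scaffold, was at 0.27 (SE 0.13) and not called. Psmd4, a ubiquitin receptor of the particle, was at 0.02 (SE 0.11), with 118 to 121 CPM in the controls and 112 to 133 CPM in the knockouts. Psmd14 encodes the deubiquitinase that removes ubiquitin chains before degradation, and it was the non-ATPase gene that fell. It held 170, 133 and 175 CPM in the controls and 99.2, 82.0 and 128 CPM in the knockouts, with knockout 3 just under control 2. The log2 fold change was -0.62 (SE 0.19, edgeR adjusted p = 0.0331), and -0.25 with the offsets (edgeR adjusted p = 0.202). The remaining non-ATPase genes, Psmd6, Psmd7, Psmd8, Psmd12 and Psmd13, lay between -0.36 and 0.07, and none was called.

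The assembly chaperones were lower or not called. Psmg4, a small chaperone of alpha ring assembly, had the lowest fold of all members. It held 19.9, 11.2 and 20.4 CPM in the controls and 5.20, 5.06 and 7.72 CPM in the knockouts, a fall of 1.52 (SE 0.28, edgeR adjusted p = 0.00667) that was 1.16 with the offsets, fitted to a transcript of 555 bases. Its partner Psmg3 was at -0.50 (SE 0.18, not called). The other pair of this kind, Psmg1 and Psmg2, fell by 0.58 (SE 0.14) and 0.41 (SE 0.11), and neither kept its call with the offsets. Of the chaperones of the 19S base, Psmd10, also known as gankyrin, fell by 0.95 (SE 0.18, edgeR adjusted p = 0.00733) from 39.4, 26.9 and 36.5 CPM to 15.6, 16.7 and 20.9 CPM, and by 0.50 with the offsets. Psmd5 (-0.26, SE 0.11) and Psmd9 (-0.12, SE 0.12) were not called, and with the offsets Psmd5 was called lower (-0.36, edgeR adjusted p = 0.0339). Psmc3ip, the meiotic factor, held 6.15, 5.95 and 8.01 CPM in the controls and 3.04, 1.88 and 2.50 CPM in the knockouts and fell by 1.44 (SE 0.25), and was at -1.15 with the offsets, with 24.0% of its 100-base stretches shared with the overlapping gene Mlx.

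Other parts of the pathway were read from lists. NRF1, encoded by Nfe2l1, is known to raise proteasome subunit genes when proteasome activity is short, after p97 pulls it from the endoplasmic reticulum and the protease DDI2 cuts it. Of 10 genes listed for this process 7 rose and none fell (none had an unadjusted p under 0.05 in that direction, and DESeq2 called none lower), with a median of 0.46. Among all genes tested 17.4% rose. The list included Nfe2l2, which encodes a separate factor, NRF2, and takes no part in NRF1 processing. Nfe2l2 was among the 7 that rose (0.50, SE 0.12). Nfe2l1 held 184, 228 and 220 CPM in the controls and 438, 385 and 381 CPM in the knockouts. The groups were far apart, and the rise was 0.93 (SE 0.14, edgeR adjusted p = 0.00395), or 0.62 with the offsets. Nploc4, a cofactor of p97, rose by 0.93 (SE 0.14), or by 0.69 with the offsets. Ddi2 rose by 0.77 (SE 0.15; 0.41 with the offsets) and Vcp, which encodes p97, by 0.58 (SE 0.18); these 2 were named after their values were seen. The calls of Nfe2l1, Nploc4 and Ddi2 were kept in all 15 alternatives, and that of Vcp was lost in 9, the offsets among them (edgeR adjusted p = 0.0575, and up to 0.114). With the offsets 4 of the 10 rose, Nfe2l2 among them (0.57), against 12.7% of all genes.

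Among 16 proteasome subunits and partners with other symbols 4 rose and 1 fell, with a median of 0.24, or 0.23 with the offsets. Over all genes tested 17.4% rose and 18.8% fell. Ubqln4, a shuttle that brings ubiquitinated proteins to the proteasome, rose by 0.50 (SE 0.10), a call lost with the offsets (0.26, edgeR adjusted p = 0.0621). Adrm1, a ubiquitin receptor of the 19S particle, rose by 0.57 (SE 0.12), from 25.4 to 31.1 CPM in the controls to 39.1 to 42.4 CPM in the knockouts, and kept its call in all 15 alternatives. The gene that fell was Sem1, a small 19S subunit (-0.46, SE 0.15), which was named after its values were seen and stood at 0.21 with the offsets. Pomp, the maturation factor of the core, was not called (-0.51, SE 0.17, edgeR adjusted p = 0.0512) but was called lower with the offsets (-0.66, edgeR adjusted p = 0.0411). Its offset was fitted to a transcript of 3850 bases, and gene counts do not show which transcript is expressed. Pomp too was named after its values were seen. Of 6 genes of ubiquitin and its activation 1 rose and 1 fell. Rps27a, which encodes ubiquitin fused to a ribosomal protein, fell by 0.95 (SE 0.26), and Uba1, the main ubiquitin-activating enzyme, rose by 0.40 (SE 0.13); with the offsets neither was called (-0.52 and 0.18). Their calls were lost in 5 and 10 of the 15 alternatives.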

How the data were processed

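The deposited file is a single table of raw read counts per Ensembl gene for the 6 libraries. GRCm38 is the build named in the submitters' processing notes, beside the tools featureCounts 1.4.6, TopHat 1.3.3 and Cuffdiff 1.3.0. Their settings, strand use, annotation release and treatment of reads that match several places are not given in the sources used here. Symbols came from GENCODE M21 (44585 of 45513 identifiers). Counts were fitted with edgeR 4.0.16 (R 4.3.3): TMM factors, filterByExpr by group, robust quasi-likelihood, group only, all 6 libraries, Benjamini-Hochberg adjustment over 15513 genes. The fit was tested on simulated data. SE is the log2 fold change over the root of F. The offsets were natural splines of each library's deviation on log2 transcript length and GC content, for 99.5% of tested genes. Alternatives were other scalings, no filter, DESeq2 1.42.0, a replicate block, sex, and each library left out.

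The members and lists were chosen with earlier results of these data known. Named genes were the catalytic subunits, activators, Psmf1, the 3 highest and lowest folds, the 3 smallest p, 1 or 2 genes per pathway list, and Lama3; further members were picked with their values known. The labels name separate mice. Of the same-numbered libraries, deviations from group means correlated at -0.18, -0.06 and 0.44, so the numbers were not taken as pairs.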

Additional observations from a re-analysis of the deposited data

How the results depend on the processing

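Across 15 alternatives (3 of them chosen after the data were seen), no called member changed sign, and 9 of the 30 called members were called in all: Psmb8, Psmb9, Psmb10, Psme1, Psme2, Psme2b, Psmd10, Psmg4 and Psmc3ip. Of 720 values of members under alternatives 128 lost a call and 11 gained one. The number of members that rose, 5, was 1 with upper-quartile factors and 3 with the replicate block; the 19S genes that rose, 3, were 1 with upper-quartile factors. The 19S genes that fell, 2, were 1 with the size factors of DESeq2 in edgeR, 0 with sex as a covariate and 0 with the offsets (2 and 1 had an unadjusted p under 0.05 in edgeR). Core genes that fell, 12, were 6 with sex as a covariate and 2 with the offsets, and members that fell, 25, were 12 with the offsets. With the replicate block and the offsets together 13 members fell and 1 rose, 4 core genes fell, 1 19S gene rose and 0 fell (2 had an unadjusted p under 0.05 in that direction). The cause of these changes was not tested.

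Leaving out 1 library gave 1 to 4 members that rose, 9 to 27 that fell, 0 to 13 core genes that fell, 0 to 3 19S genes that rose, 0 to 3 that fell, and 3 immunoproteasome genes that fell each time. Over all genes these fits called 10.1% to 17.3% higher and 10.8% to 17.4% lower, against 17.4% and 18.8% with all libraries. The log2 differences of the ratios lay between -0.55 and -0.24 for Psmb8 over Psmb5, -0.55 and -0.41 for Psmb9 over Psmb6, and -1.11 and -0.97 for Psmb10 over Psmb7. With same-numbered libraries paired, as a replicate block, the ratios were unchanged and the smallest exact p possible was 0.25. Outside the family Sem1 reversed, to 0.21 with the offsets and 0.20 with the block and the offsets. Psma8 and Psmb11 had too few counts to be tested.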
